A study of Homo sapiens with 9 samples.

Results

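The effect of the hairpin shFAM83H-AS1_2 was measured over all genes, by setting cells that carried it against cells that carried the control hairpin shNC. Genes were kept where they reached 1 FPKM in at least 3 of the 9 libraries of the series, which left 11875 of the 31004 genes in the table. FPKM are read numbers scaled to the length of the gene and the depth of the library. The cells were MDA-MB-468, a human breast cancer line without oestrogen and progesterone receptors and with a basal-like profile. Cells of both groups were grown in DMEM with fetal bovine serum and received lentivirus at an MOI of 10, and both were kept as stable lines under puromycin at 1 µg/mL. There were 3 libraries with shFAM83H-AS1_2 and 3 with shNC, each made from 2 µg of total RNA. A further 3 libraries with shFAM83H-AS1_1, the other hairpin against the same RNA, entered only the choice of genes, the direct comparison of the hairpins and some alternative fits. Whether replicates are separate cultures is not stated in the labels, so p-values may measure technical spread. Nor do the labels say whether a line is a pool or a clone, or what sequence shNC holds.

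FAM83H-AS1 is known as a long noncoding RNA at 8q24.3, a part of the genome that is often gained in breast cancer, and it lies head to head with the protein-coding gene FAM83H. Tumour cells of epithelial origin can make inflammatory chemokines themselves. Many of these genes are switched on by NF-kB, a family of transcription factors that inhibitor proteins hold in the cytoplasm until IkB kinase marks the inhibitors for destruction. Basal-like breast cancer cells make keratins of the basal cell layer and the integrin and laminin that anchor that layer to its basement membrane.

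The 6 libraries held 15264471 to 17779633 reads in genes, and libraries of a group correlated at 0.979 to 0.988 across genes (Pearson, log2 scale). Replicates differed by more than counting error, with a chi-square per degree of freedom of 12.5 to 27.5, so none was the same library deposited again. Libraries also differed in how level followed the GC content of the gene. The Spearman correlation of a library's deviations with GC was 0.13, 0.70 and -0.20 in replicates 1, 2 and 3 of shFAM83H-AS1_2, against -0.32, 0.16 and -0.59 in shNC. The 9 epithelial markers summed to 1931 to 2100 FPKM in shFAM83H-AS1_2 libraries and 1458 to 1789 FPKM in shNC libraries. ESR1, the oestrogen receptor gene, had 0.169 FPKM with shFAM83H-AS1_2 and 0.152 FPKM with shNC. Leukocyte markers summed to less than 1 FPKM in every library, 0.344 to 0.477 FPKM with shFAM83H-AS1_2 and 0.131 to 0.715 FPKM with shNC. Of the endothelial markers only KDR was above 1 FPKM, with 27.1 FPKM in shFAM83H-AS1_2 cells and 23.8 FPKM in shNC cells.

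The target was lower in cells with its hairpin. FAM83H-AS1 lies on the plus strand of hg38 chromosome 8 from 143734140 to 143790644 and carries the symbol IQANK1 in the gene name table (ENSG00000203499). RefSeq gives FAM83H-AS1 as another name of IQANK1, and RefSeq and GENCODE both class that gene as protein-coding. The values are those of the whole gene, in which transcripts are not told apart. It had 8.56, 7.92 and 7.46 FPKM in the shFAM83H-AS1_2 libraries, against 17.9, 17.5 and 14.3 FPKM in the shNC libraries. Every knockdown library lay below every control library. The mean was 7.98 ± 0.551 FPKM with shFAM83H-AS1_2 and 16.5 ± 1.98 FPKM with shNC (SD, n = 3 each), which leaves 48.2% of the control level. The change was -0.96 on the log2(FPKM + 1) scale (SE 0.117, limma adjusted p = 0.0149), and it kept its call in 3 of 6 fits with a library left out. An exact permutation test of the 6 values gave a two-sided p of 0.1, which no split of 3 against 3 can go below. Of 17 measured listed neighbours at 8q24.3, FAM83H among them, 0 passed limma without or with pairs of libraries, 0 had an unadjusted p under 0.05, and 0 passed with voom on reads. Their log2 changes ran from -0.07 to 0.24, with a median of 0.07, which turned to -0.04 when trends with GC were removed. FAM83H, needed for tooth enamel and for the order of keratin filaments, shares 4095 bp with the target on the other strand. It had 47.6, 56.6 and 45.9 FPKM with shFAM83H-AS1_2, against 47.8, 55.8 and 40.4 FPKM with shNC, and the groups overlapped (0.06, limma adjusted p = 0.861). MIR4664, a microRNA gene within FAM83H that is not in the list, was higher with pairs. It had 58.8, 81.6 and 82.2 FPKM with shFAM83H-AS1_2 and 47.4, 52.6 and 47.7 FPKM with shNC (0.57, limma adjusted p = 0.0312 with pairs, 0.121 without). MIR4664 shares 71 bp with FAM83H on the same strand, so its reads cannot be told from those of FAM83H RNA. The strand setting of the counting is not given in the sources used here, so reads in the stretch shared by FAM83H and the target could count for either gene.

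Calls are given in a pair of forms, without and with pairs of libraries, because replicate numbers of the groups moved together. Deviations from the group mean correlated at 0.20, 0.35 and 0.39 between same-numbered libraries, and at -0.37 to -0.003 between the others. Deviations cancel out within a group, so negative values between the others follow from the positive ones and add no evidence. With the groups alone in the model, 33 genes passed limma at an adjusted p of 0.05 (0.278% of those tested), 23 of them higher with shFAM83H-AS1_2 (0.194%) and 10 lower (0.0842%). With same-numbered libraries as pairs, 617 passed (5.2%), 310 higher (2.61%) and 307 lower (2.59%), and these include each of the 33. Below, rose and fell are used of the 33, and the others are said to pass with pairs. What the numbers share is not in the labels, and the pairing was found in the values that the paired model then tests. The paired count was 104, 746 and 0 when pair 1, 2 or 3 was left out, and 220 (125 higher, 95 lower) with trends with GC removed. Without single libraries the unpaired count was 4, 10 and 32 for shFAM83H-AS1_2 replicates 1, 2 and 3, and 12, 48 and 16 for shNC replicates 1, 2 and 3. Of the 33, those still called were 4, 8 and 21 without the shFAM83H-AS1_2 replicates and 11, 24 and 13 without the shNC replicates.

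The direction of the 33 was the same in each of the 25 alternatives in which they were tested. Their median absolute log2 change was 0.96, against 0.50 for the 617. In all of the 33, and in 541 of the 617, the 3 libraries of one group lay wholly above or below those of the other, as they did in 22% of the tested genes. Over all tested genes the median log2 change was -0.01, and 51.8% of the changes were negative. Genes that passed, without or with pairs, differed in base composition. With pairs, median GC was 56.5% for those higher with shFAM83H-AS1_2 and 42.4% for those lower, against 48.8% over all tested genes. Among the 33 it was 56.7% for those higher and 45.0% for those lower.

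**Figure D1:**
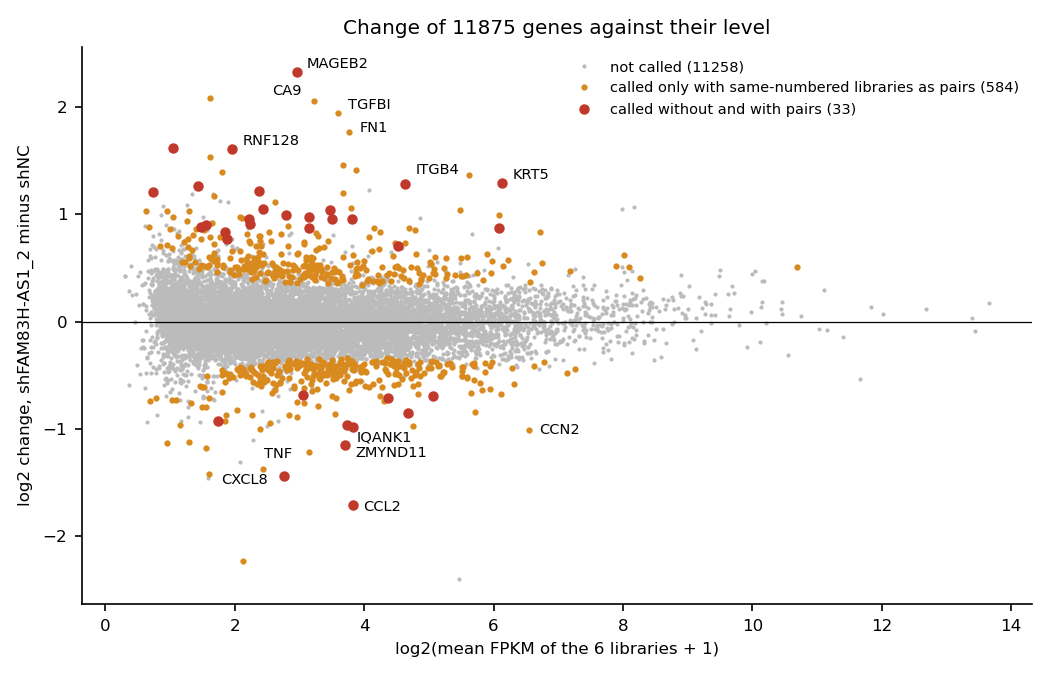
Log2 change, shFAM83H-AS1_2 minus shNC, of FPKM + 1 (vertical) against the log2 mean level of the 6 libraries (horizontal), 1 point per gene. Red points are the 33 genes called without and with pairs, orange the 584 called with pairs alone, and grey the rest. MAGEB2 lies highest among the red points and CCL2 lowest.

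Inflammatory chemokines made up 4 of the 10 genes that fell with shFAM83H-AS1_2. CCL2, which attracts monocytes, and CXCL8, CXCL1 and CXCL3, which attract neutrophils through the receptor CXCR2, dropped to between 27.5% and 47.9% of the control level. The sequences below are the 200 bases before the start site of 4 chemokine genes, shown because these genes were lower, CXCL10 with pairs alone, and because NF-kB sites are known in this stretch. CCL2 is not among them or among the 5 genes counted for the motif. They are from RefSeq (GRCh38.p14), 5′ to 3′ on the gene's strand, and capitals mark the kappa-B-like motif GGNNNTTCC or its reverse complement.
CXCL8 (chr4:73740369-73740568, plus strand): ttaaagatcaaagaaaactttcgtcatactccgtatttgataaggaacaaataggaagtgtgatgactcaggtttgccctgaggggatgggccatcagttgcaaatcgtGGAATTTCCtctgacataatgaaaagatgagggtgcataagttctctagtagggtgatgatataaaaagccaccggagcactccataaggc
CXCL1 (chr4:73869193-73869392, plus strand): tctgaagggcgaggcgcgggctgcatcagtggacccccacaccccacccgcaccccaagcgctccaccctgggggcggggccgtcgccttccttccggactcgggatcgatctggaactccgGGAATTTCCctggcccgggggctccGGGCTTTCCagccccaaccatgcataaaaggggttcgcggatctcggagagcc
CXCL3 (chr4:74038690-74038889, minus strand): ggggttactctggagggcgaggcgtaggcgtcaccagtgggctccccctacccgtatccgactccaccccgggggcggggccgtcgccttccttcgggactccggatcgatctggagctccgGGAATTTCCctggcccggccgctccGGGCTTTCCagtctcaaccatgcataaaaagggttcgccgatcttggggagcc
CXCL10 (chr4:76023498-76023697, minus strand): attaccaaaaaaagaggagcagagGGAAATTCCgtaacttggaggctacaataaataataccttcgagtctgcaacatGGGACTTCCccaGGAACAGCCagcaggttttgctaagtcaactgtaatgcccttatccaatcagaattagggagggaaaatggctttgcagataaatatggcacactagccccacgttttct

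The motif began 91 bases before the start of CXCL8, 78 and 53 bases before those of CXCL1 and CXCL3, and 176, 122 and 110 bases before that of CXCL10. CXCL1 and CXCL3 are close paralogs that hold it at the same places. In windows of 300 bases, 250 before to 50 after the start, 20.1% of 35116 windows in the table held it. So did 23.2% of 12589 windows of tested genes. It was also in 5 of 5 measured chemokine genes with an entry. These were listed as targets of NF-kB, so the motif was likely in them beforehand and their count is no test. Among genes that passed with pairs, it was in 25.6% of windows of those lower and 20.5% of windows of those higher. A match of 9 letters describes these windows and shows no binding.

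CCL2 (hg38 chromosome 17, 34255218 to 34257203) had 7.18, 4.98 and 4.92 FPKM in the shFAM83H-AS1_2 libraries, against 20.3, 22.2 and 19.6 FPKM with shNC (log2 change -1.71, SE 0.141, limma adjusted p = 0.00207). Interleukin-8, encoded by CXCL8 (chromosome 4, 73740541 to 73743716), had close values within each group, 2.67, 2.64 and 2.63 FPKM with shFAM83H-AS1_2, against 8.19, 9.04 and 9.52 FPKM with shNC (-1.44, SE 0.104, limma adjusted p = 9.75e-04). In both genes every knockdown library was below every control library, and each kept its call when any 1 library was left out. CXCL1 (chromosome 4, 73869393 to 73871308) had 9.07, 9.49 and 7.04 FPKM with shFAM83H-AS1_2 and 17.6, 16.8 and 19.0 FPKM with shNC (-0.99, SE 0.126, limma adjusted p = 0.0167). CXCL3 (chromosome 4, 74036589 to 74038807) had 1.52, 1.39 and 0.997 FPKM with shFAM83H-AS1_2, against 3.66, 3.45 and 2.95 FPKM with shNC (-0.92, SE 0.138, limma adjusted p = 0.0355). CXCL1 and CXCL3 are near-identical in parts, so how their shared reads were split is uncertain. When single libraries were left out, CXCL1 kept its call in 2 of 6 fits and CXCL3 in 0 (limma adjusted p up to 0.0891 and 0.152).

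Of 12 listed chemokine genes 8 were measured, and in 7 of them every shFAM83H-AS1_2 library lay below every shNC library, as in 10.9% of the tested genes. Without pairs 4 of 8 were lower, and with pairs 6, where 0.0842% and 2.59% of all tested genes were lower. CXCL10, a chemokine for T cells that interferon also induces, had 0.346, 0.718 and 0.418 FPKM with shFAM83H-AS1_2 and 2.21, 2.29 and 1.32 FPKM with shNC. It passed with pairs (log2 change -0.97, limma adjusted p = 0.0221), but it had entered the test through its shNC libraries alone. CXCL10 therefore had to differ. Its call, and its share in these counts and in the median of the 8, carry no weight. CCL20, the ligand of CCR6, had 0.864 ± 0.278 FPKM with shFAM83H-AS1_2 and 2.15 ± 0.257 FPKM with shNC (SD, n = 3 each) and also passed with pairs (-0.76, limma adjusted p = 0.0248), though not once trends with GC were removed (0.0621, limma with pairs). With a mean under 1 FPKM, the shFAM83H-AS1_2 libraries could not bring CCL20 into the test by themselves. Its shNC libraries could, so its call and its share in these counts and the median carry little weight. Transmembrane CX3CL1 had 3.63 FPKM with shFAM83H-AS1_2 and 6.43 FPKM with shNC (-0.63) and CXCL16 29.4 FPKM with shFAM83H-AS1_2 and 27.4 FPKM with shNC (0.12), and neither passed. The median log2 change of the 8 was -0.95, where that of all tested genes was -0.01.

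**Figure D2:**
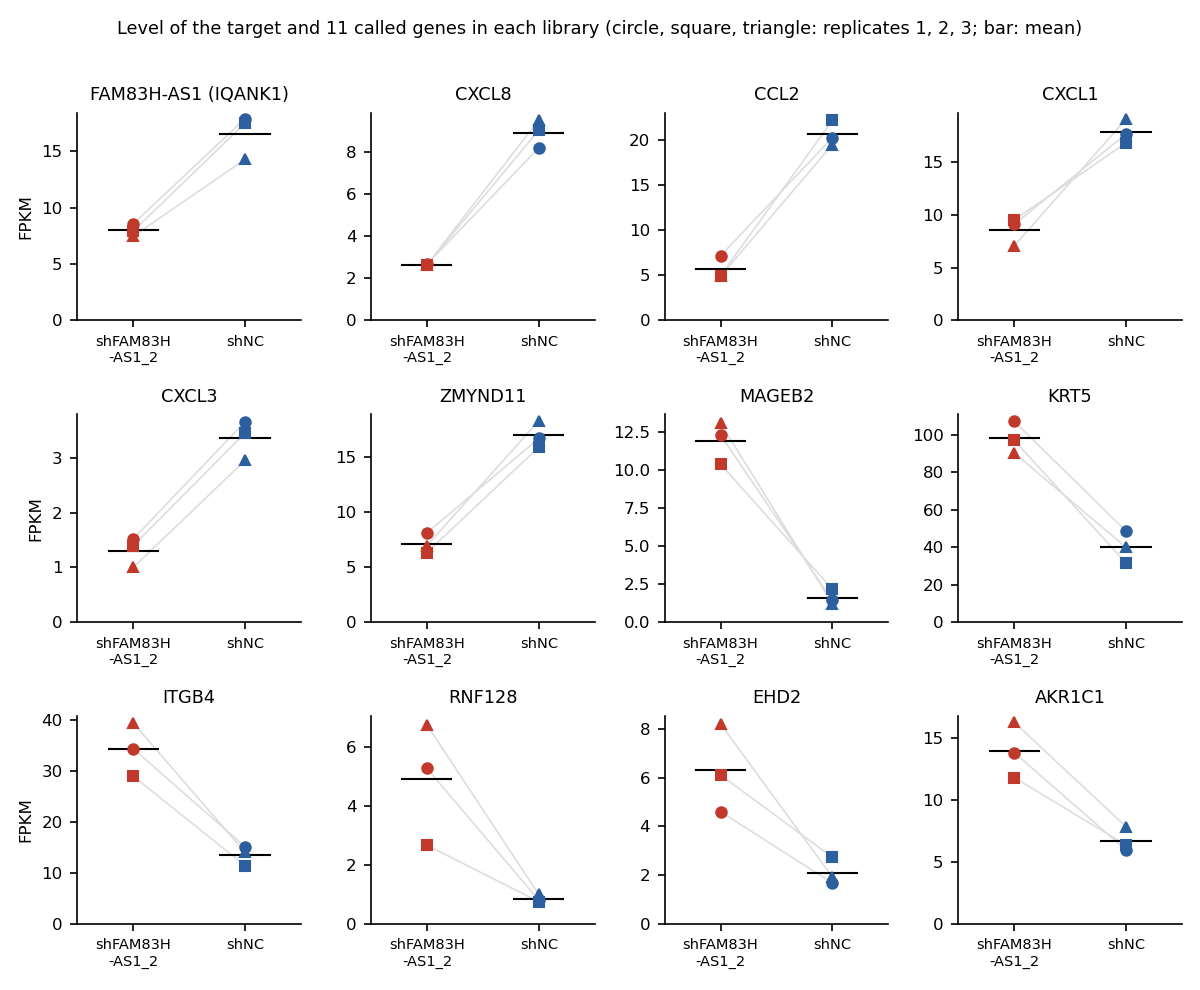
FPKM of FAM83H-AS1 (IQANK1) and 11 genes that changed, in each library. Circles, squares and triangles are replicates 1, 2 and 3, bars are means, and grey lines join same-numbered libraries of shFAM83H-AS1_2 (left) and shNC (right). In each panel the 3 libraries of one group lie wholly above or below those of the other.

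Genes of NF-kB signalling that act around these chemokines were lower where they passed, except CD14. TNF, a cytokine that activates NF-kB and is itself a target, had 5.08, 4.62 and 3.15 FPKM with shFAM83H-AS1_2 and 11.3, 15.4 and 7.81 FPKM with shNC. The groups did not overlap, and TNF passed with pairs (-1.22, limma adjusted p = 0.00592) but not without (0.0668). TNFAIP3, the A20 enzyme that shuts NF-kB off and is induced by it, had 1.73, 1.57 and 1.12 FPKM with shFAM83H-AS1_2, against 3.60, 4.78 and 2.89 FPKM with shNC (-0.93, limma adjusted p = 0.0129 with pairs, 0.0658 without). NFKBIA, the inhibitor IkB-alpha, had 32.3, 36.0 and 33.5 FPKM with shFAM83H-AS1_2, against 42.8, 50.6 and 44.8 FPKM with shNC (-0.43, limma adjusted p = 0.0302 with pairs, 0.121 without). CHUK, the alpha subunit of IkB kinase, had 3.06 ± 0.470 FPKM with shFAM83H-AS1_2 and 5.08 ± 0.666 FPKM with shNC (SD, n = 3 each). RELB, a subunit of the noncanonical branch, had 2.73 ± 0.520 FPKM with shFAM83H-AS1_2 and 4.08 ± 0.580 FPKM with shNC (SD, n = 3 each). Both passed with pairs (limma adjusted p = 0.0203 and 0.0459) and neither without (0.104 and 0.185), and CHUK missed the threshold with pairs once trends with GC were removed (0.0596).

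ICAM1, the adhesion molecule that leukocytes bind, had 22.1, 26.4 and 20.8 FPKM with shFAM83H-AS1_2 and 33.1, 35.9 and 30.4 FPKM with shNC (-0.50, limma adjusted p = 0.0221 with pairs, 0.118 without). CD14, the co-receptor for lipopolysaccharide, went the other way, with 75.1, 92.0 and 98.9 FPKM with shFAM83H-AS1_2, against 34.6, 46.3 and 52.6 FPKM with shNC (0.99, limma adjusted p = 0.00503 with pairs, 0.0520 without). CD14 marks monocytes, and the leukocyte markers of the list, LYZ, PTPRC and ITGAM among them, each had less than 1 FPKM. Of the 10 measured cytokine and adhesion genes 0 passed limma without pairs, where 5 lower and 1 higher had an unadjusted p under 0.05. With pairs 3 were lower and 1 higher, and with voom on reads 1 and 1. Over all tested genes an unadjusted p under 0.05 was reached by 15.7%, 7.48% lower and 8.24% higher. With pairs 2.59% of them were lower and 2.61% higher. Of the 16 subunits and inhibitors 0 passed limma without pairs (5 with an unadjusted p under 0.05, all lower), 5 with pairs, all lower, and 1 with voom. RELA, the main activating subunit, had a log2 change of 0.12 and NFKB1 of -0.21, and neither passed. FBXW11, which recognises phosphorylated IkB for ubiquitination, was among the 10 genes that fell, with 14.7 ± 1.20 FPKM with shFAM83H-AS1_2 and 24.6 ± 0.989 FPKM with shNC (SD, n = 3 each; -0.71, limma adjusted p = 0.0323), and kept its call in 1 of 6 fits with a library left out.

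**Figure D3:**
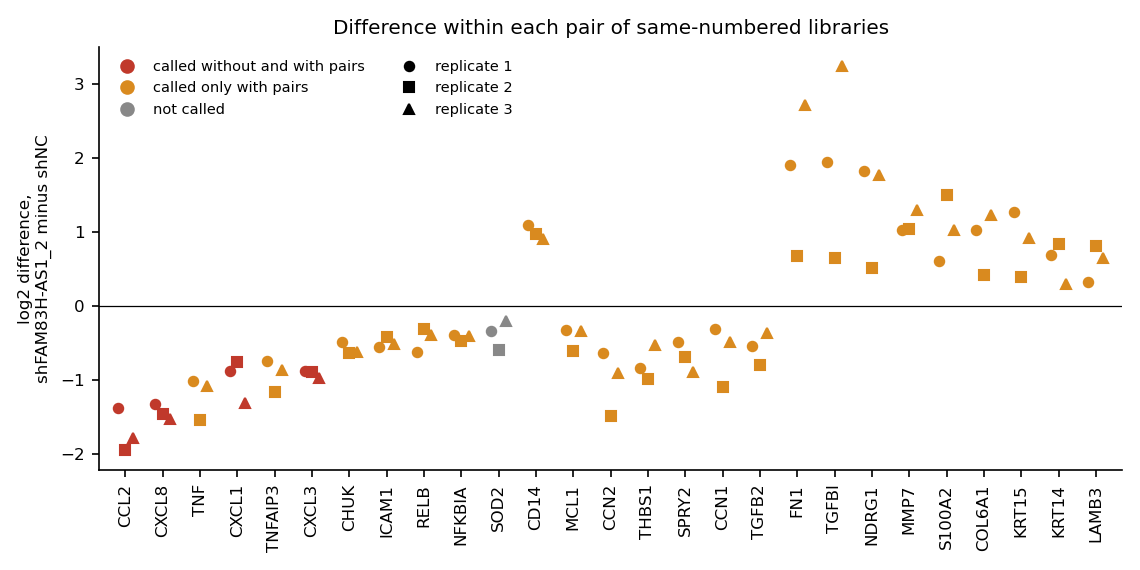
Log2 difference, shFAM83H-AS1_2 minus shNC, within each pair of same-numbered libraries, for 27 genes of inflammation, YAP and TGF-beta signalling, matrix and basal epithelium. Circles, squares and triangles are replicates 1, 2 and 3, and colour gives the call. The pairs of CCL2, CXCL8, CXCL1 and CXCL3 lie between -1.96 and -0.76, while those of FN1 and TGFBI run from 0.65 to 3.24.

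On the log2(FPKM + 1) scale the gene with the largest rise among the 23 was MAGEB2 (ENSG00000099399, hg38 chromosome X, 30215563 to 30220089, plus strand), a cancer-testis antigen gene, normally active in male germ cells. It had 12.3, 10.4 and 13.1 FPKM with shFAM83H-AS1_2 and 1.42, 2.16 and 1.22 FPKM with shNC, from 980 and 123 reads. The mean was 7.46 times the control mean, and the log2 change was 2.33 (SE 0.153, limma adjusted p = 8.19e-04). It kept its call when any 1 library was left out. MAGEB4 and MAGEB1, its neighbours in the same cluster, had 6.11 and 2.71 FPKM with shFAM83H-AS1_2 and 5.82 and 2.94 FPKM with shNC, and neither passed. Of 9 measured cancer-testis genes MAGEB2 was the 1 that passed, without or with pairs. MAGEA3 and MAGEA6, which share long near-identical stretches, had 84.4 and 102 FPKM with shFAM83H-AS1_2 and 95.0 and 104 FPKM with shNC.

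KRT5 and ITGB4, genes of the basal epithelial layer, rose. KRT5, a keratin of basal cells, had 107, 97.1 and 90.3 FPKM with shFAM83H-AS1_2 and 48.6, 31.5 and 39.9 FPKM with shNC (1.29, SE 0.152, limma adjusted p = 0.0137). ITGB4, the integrin chain of hemidesmosomes, had 34.2 ± 5.22 FPKM with shFAM83H-AS1_2 and 13.5 ± 1.90 FPKM with shNC (SD, n = 3 each; 1.28, SE 0.143, limma adjusted p = 0.0120). In both genes every knockdown library was above every control library. ITGB4 shares 6225 bp with GALK1 on the other strand, so some of its reads may belong there. With each library left out in turn, KRT5 kept its call in 4 of 6 fits and ITGB4 in 5 of 6 (limma adjusted p up to 0.0891 for each).

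KRT14, the partner of KRT5, had 57.0 ± 2.65 FPKM with shFAM83H-AS1_2 and 37.5 ± 7.15 FPKM with shNC (SD, n = 3 each; 0.61), and KRT15, another basal type I keratin, had 33.9 ± 3.40 FPKM with shFAM83H-AS1_2 and 19.1 ± 6.94 FPKM with shNC (SD, n = 3 each; 0.85). LAMB3, a chain of laminin-332 to which the integrin binds, had 45.1 ± 1.55 FPKM with shFAM83H-AS1_2 and 29.8 ± 4.36 FPKM with shNC (SD, n = 3 each; 0.59). These 3 passed with pairs (limma adjusted p = 0.0315, 0.0299 and 0.0300) and not without (0.0995, 0.130 and 0.0736). They also missed the threshold with pairs once trends with GC were removed (0.0745, 0.0678 and 0.0612). The hair keratin KRT81 was lower with pairs, with 116 ± 17.9 FPKM with shFAM83H-AS1_2 and 162 ± 27.5 FPKM with shNC (SD, n = 3 each; -0.48, limma adjusted p = 0.0374). Of 8 measured basal and stress keratins 1 rose without pairs, and with pairs 3 were higher and 1 lower, with a median log2 change of 0.26. Of 6 hemidesmosome and laminin-332 genes 1 rose without pairs and 2 were higher with them, with a median of 0.31. Among all tested genes 0.194% rose without pairs, and with pairs 2.61% were higher and 2.59% lower.

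Of 5 measured keratins of simple epithelia 0 passed limma without or with pairs, 3 had an unadjusted p under 0.05, and 0 passed with voom. An unadjusted p under 0.05 was reached by 15.7% of all tested genes. KRT19 had 1164 ± 76.3 FPKM with shFAM83H-AS1_2 and 864 ± 136 FPKM with shNC (SD, n = 3 each; 0.44, limma adjusted p = 0.0543 with pairs) and KRT8 298 ± 12.7 FPKM with shFAM83H-AS1_2 and 219 ± 45.1 FPKM with shNC (SD, n = 3 each; 0.46, 0.0536 with pairs, limma). EGFR, the receptor this line is known to carry in many copies, had 8.31 ± 2.22 FPKM with shFAM83H-AS1_2 and 7.56 ± 0.481 FPKM with shNC (SD, n = 3 each; 0.09, limma adjusted p = 0.836). Its mean was the lowest of the 9 epithelial markers in both groups, and copy number was not measured here. LYPD3, a membrane-anchored protein of stratified epithelium and among the 23 genes that rose, had 12.2, 13.4 and 16.4 FPKM with shFAM83H-AS1_2 and 5.56, 7.46 and 5.84 FPKM with shNC (1.04, limma adjusted p = 0.0234), and kept its call in 2 of 6 fits with a library left out. CLDN1, a tight junction claudin, was lower with pairs (20.8 FPKM with shFAM83H-AS1_2 and 34.0 FPKM with shNC, -0.68, limma adjusted p = 0.0238), but not with trends with GC removed (0.0590).

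Matrix genes were mostly higher where they passed, and they passed with pairs alone. FN1, fibronectin, had 18.7, 10.5 and 32.0 FPKM with shFAM83H-AS1_2 and 4.26, 6.17 and 4.05 FPKM with shNC (1.76, limma adjusted p = 0.0298 with pairs, 0.0659 without). TGFBI, a matrix protein induced by TGF-beta, had 13.1, 10.7 and 31.0 FPKM with shFAM83H-AS1_2, against 2.67, 6.43 and 2.39 FPKM with shNC (1.94, limma adjusted p = 0.0389 with pairs, 0.0736 without). The groups did not overlap, but the second pair was far closer than the others in both genes (0.68 and 0.65, where the other pairs gave 1.91 to 3.24). MMP7, a protease that epithelial cells secrete, had 7.65, 9.21 and 5.30 FPKM with shFAM83H-AS1_2, against 3.25, 3.98 and 1.56 FPKM with shNC, with similar steps in each pair (1.12, limma adjusted p = 0.00503 with pairs, 0.103 without). COL6A1 (8.16 FPKM with shFAM83H-AS1_2 and 3.92 FPKM with shNC, 0.89) and COL1A1 (1.73 FPKM with shFAM83H-AS1_2 and 0.840 FPKM with shNC, 0.56), chains of collagens VI and I, were also higher with pairs, while THBS1, the matrix protein thrombospondin, was lower (6.16 FPKM with shFAM83H-AS1_2 and 11.4 FPKM with shNC, -0.79, limma adjusted p = 0.0157 with pairs, 0.0520 without). With trends with GC removed, TGFBI, COL6A1 and COL1A1 missed the threshold with pairs (limma adjusted p = 0.0740, 0.0642 and 0.0989).

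Of 19 measured matrix proteins and proteases 0 passed limma without pairs, where 8 higher and 1 lower had an unadjusted p under 0.05. With pairs 4 were higher and 1 lower, with voom 1 and 1, and the median log2 change was 0.33. With pairs and trends with GC removed, 2 were higher and 1 lower. FN1 was in the list of 8 measured genes of epithelial-mesenchymal transition, of which 2 were higher with pairs, and TGFBI in that of 16 TGF-beta and ID genes, of which 3 were higher and 1 lower. For comparison, 2.61% of all tested genes were higher with pairs and 2.59% lower. An unadjusted p under 0.05 was reached by 8.24% higher and 7.48% lower. The integrin ITGA5, a fibronectin receptor, had 6.74 ± 0.618 FPKM with shFAM83H-AS1_2 and 4.58 ± 0.340 FPKM with shNC (SD, n = 3 each) and passed with pairs (0.47, limma adjusted p = 0.0300) but not with trends with GC removed (0.0606). VIM, the mesenchymal intermediate filament gene, had 1.80, 1.19 and 3.55 FPKM with shFAM83H-AS1_2, against 1.01, 1.14 and 0.821 FPKM with shNC, and did not pass (limma adjusted p = 0.138 with pairs). Of 7 fibroblast markers 4 were in the table, and they summed to 1.82 to 2.83 FPKM with shFAM83H-AS1_2 and 0.786 to 1.27 FPKM with shNC, mostly COL1A1. LUM, a defining fibroblast gene, was at 0 in the 6 libraries, and PDGFRA had 0.392 FPKM with shFAM83H-AS1_2 and 0.122 FPKM with shNC. Their part in the matrix result was not tested. In bulk RNA, more cells of a type and more RNA per cell cannot be told apart.

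Targets of YAP and TEAD, transcription regulators that respond to cell shape and density, were lower where they passed. CCN2, the best known of them, had 87.6, 53.8 and 42.6 FPKM with shFAM83H-AS1_2 and 137, 153 and 81.1 FPKM with shNC. The groups overlapped, since shNC replicate 3 lay below shFAM83H-AS1_2 replicate 1, but each knockdown library was below its own pair (-1.01, limma adjusted p = 0.0208 with pairs, 0.144 without). CCN1, TGFB2 and AMOTL2 also passed with pairs (-0.64, -0.57 and -0.51, limma adjusted p = 0.0499, 0.0303 and 0.0312). Of 14 measured YAP/TEAD targets 0 passed limma without pairs (6 with an unadjusted p under 0.05, all lower), 4 with pairs, all lower, and 0 with voom, with a median log2 change of -0.18. With pairs and trends with GC removed 2 were lower, as CCN1 and TGFB2 missed the threshold (limma adjusted p = 0.0791 and 0.0616). In the MAPK and immediate early list, SPRY2, a feedback inhibitor of receptor signalling, had 13.4 ± 1.72 FPKM with shFAM83H-AS1_2 and 22.5 ± 4.85 FPKM with shNC (SD, n = 3 each; -0.70) and KLF6 6.47 ± 0.763 FPKM with shFAM83H-AS1_2 and 9.88 ± 1.10 FPKM with shNC (SD, n = 3 each; -0.54). Both passed with pairs (limma adjusted p = 0.0166 and 0.0439), as did EGR1, an immediate early transcription factor, with overlapping groups (-0.85, 0.0166). KLF6 missed the threshold with trends with GC removed (0.0745) and in each paired fit with a pair left out. Of 23 measured genes 0 passed limma without pairs (4 with an unadjusted p under 0.05, all lower), 3 with pairs, all lower, and 0 with voom, and the median was -0.14. Among all tested genes 2.59% were lower with pairs, and 7.48% were lower with an unadjusted p under 0.05.

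Genes of hypoxia and glycolysis leaned higher without any call in the unpaired model. Of 29 measured, 28 had a positive log2 change, the median was 0.38, and in 16 every shFAM83H-AS1_2 library lay above every shNC library, against 11.1% of the tested genes. Of the 29, 0 passed limma without pairs (18 with an unadjusted p under 0.05, all higher), 9 with pairs, all higher, and 4 with voom. Among all tested genes 2.61% were higher with pairs, and 8.24% were higher with an unadjusted p under 0.05. NDRG1, induced by low oxygen, had 67.4, 48.6 and 93.7 FPKM with shFAM83H-AS1_2 and 18.3, 33.7 and 26.7 FPKM with shNC (1.37, limma adjusted p = 0.0267 with pairs). The glycolytic enzymes TPI1 (268, 293 and 275 FPKM with shFAM83H-AS1_2, against 189, 195 and 197 FPKM with shNC, 0.52) and PKM (350 ± 9.10 FPKM with shFAM83H-AS1_2 and 265 ± 10.2 FPKM with shNC, SD, n = 3 each, 0.40) passed with pairs as well (limma adjusted p = 0.0238 and 0.0439). So did the lactate exporter SLC16A3 (4.17 ± 0.613 FPKM with shFAM83H-AS1_2 and 2.28 ± 0.329 FPKM with shNC, SD, n = 3 each, 0.65). CA9, a membrane carbonic anhydrase that hypoxia-inducible factor switches on, had 9.13, 10.6 and 21.2 FPKM with shFAM83H-AS1_2, against 0.986, 6.48 and 1.43 FPKM with shNC. It passed with pairs (2.06, limma adjusted p = 0.0347) and shNC replicate 2 was the control nearest to the knockdown libraries. BNIP3, ENO2, PGK1 and PFKP passed with pairs as well (0.75, 0.72, 0.51 and 0.45). With trends with GC removed, 4 of the 29 passed with pairs and the median was 0.36, and NDRG1, CA9, PKM, SLC16A3, ENO2 and PFKP missed the threshold (limma adjusted p = 0.0540 to 0.0939).

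**Figure D4:**
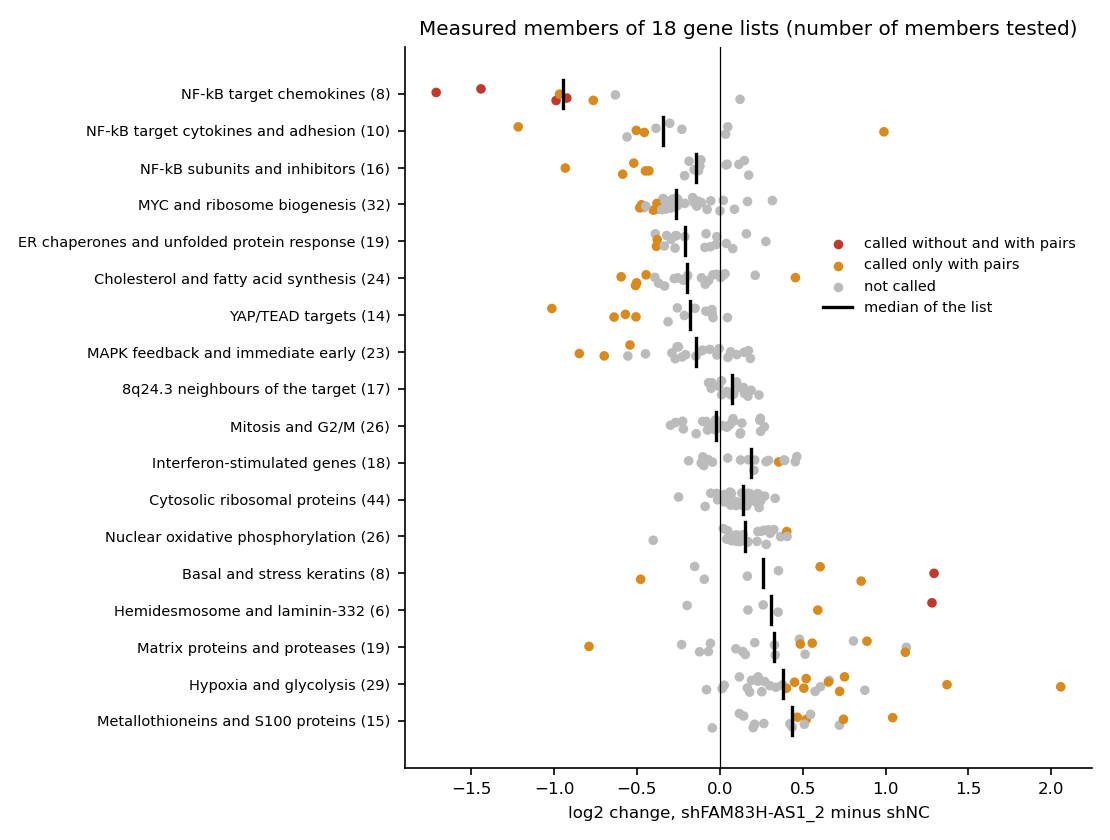
Log2 change, shFAM83H-AS1_2 minus shNC, of the measured members of 18 gene lists, 1 point per gene, with the number measured in brackets and the list median as a black bar. Red points are called without and with pairs, orange with pairs alone, grey not called. The chemokines have the lowest median (-0.95) and the metallothioneins and S100 proteins the highest (0.44).

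S100 genes, which encode small calcium-binding proteins, and metallothioneins had a median log2 change of 0.44, and 14 of 15 measured were positive. Without pairs 0 passed limma (6 with an unadjusted p under 0.05, all higher), with pairs 4 were higher, and with voom 1. Among all tested genes 2.61% were higher with pairs, and 8.24% were higher with an unadjusted p under 0.05. S100A2, a gene of basal epithelium, had 44.0, 65.9 and 67.5 FPKM with shFAM83H-AS1_2 and 28.7, 22.7 and 32.6 FPKM with shNC (1.04, limma adjusted p = 0.0207 with pairs, 0.0622 without). The metal-binding MT1F had 4.76 ± 0.0354 FPKM with shFAM83H-AS1_2 and 3.04 ± 0.545 FPKM with shNC (SD, n = 3 each; 0.52, limma adjusted p = 0.0374 with pairs). S100A8 and S100A9, partners in calprotectin, passed with pairs too (0.75 and 0.47), with overlapping groups. With trends with GC removed MT1F and S100A9 missed the threshold with pairs (limma adjusted p = 0.0745 and 0.0621). Cytosolic ribosomal protein genes had 0 of 44 passing limma in either form or with voom (4 with an unadjusted p under 0.05), a median of 0.14 that quantile normalization reduced to 0.06, and 38 positive changes, 30 under that scaling.

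Ribosome biogenesis and lipid synthesis leaned lower. Of 32 measured MYC and ribosome biogenesis genes 27 had a negative log2 change, with a median of -0.26. In 13 every shFAM83H-AS1_2 library lay below every shNC library, as in 10.9% of the tested genes. Of the 32, 0 passed limma without pairs (13 lower and 1 higher with an unadjusted p under 0.05), 4 with pairs, all lower, and 0 with voom. Over all tested genes 2.59% were lower with pairs, and 7.48% were lower with an unadjusted p under 0.05. UTP18, of the small subunit processome, had 20.0 ± 2.49 FPKM with shFAM83H-AS1_2 and 28.2 ± 1.45 FPKM with shNC (SD, n = 3 each; -0.48, limma adjusted p = 0.0312 with pairs, 0.118 without, and 0.0514 with pairs and trends with GC removed). MYC itself had 32.4 ± 6.53 FPKM with shFAM83H-AS1_2 and 42.7 ± 12.4 FPKM with shNC (SD, n = 3 each) and did not pass (-0.37, limma adjusted p = 0.0631 with pairs). Of 24 measured genes of cholesterol and fatty acid synthesis 0 passed limma without pairs (7 lower and 1 higher with an unadjusted p under 0.05) and 0 with voom. With pairs SQLE, HMGCS1 and IDI1, enzymes of the sterol pathway, were lower (-0.60 to -0.44), and SREBF1, which encodes a regulator of lipid synthesis, was higher (0.46). SREBF1 had 37.8 ± 5.75 FPKM with shFAM83H-AS1_2 and 27.1 ± 1.85 FPKM with shNC (SD, n = 3 each; limma adjusted p = 0.0352 with pairs). With trends with GC removed HMGCS1, IDI1 and SREBF1 missed the threshold with pairs (0.0756, 0.0589 and 0.0850, limma).

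In the lists of cell cycle and death genes given here 0 passed limma without pairs. With pairs, 2 of 30 measured DNA replication and G1/S genes were higher and 1 lower. Of 12 p53 targets 1 was higher and 1 lower. Among 9 death ligands and receptors 1 was lower, as was 1 of 12 BCL2 family genes. Over all tested genes 5.2% passed with pairs. Of 26 measured mitosis and G2/M genes 0 passed limma in either form or with voom (2 with an unadjusted p under 0.05), with a median log2 change of -0.02. The inhibitor CDKN1A had 9.68, 6.10 and 12.5 FPKM with shFAM83H-AS1_2 and 5.21, 3.50 and 7.17 FPKM with shNC. Its groups overlapped, yet each pair differed by about the same step (0.78, 0.66 and 0.73), and it passed with pairs (limma adjusted p = 0.00936) but not without (0.233). MCM6, of the replicative helicase, was higher with pairs (40.2 FPKM with shFAM83H-AS1_2 and 26.0 FPKM with shNC, 0.61, limma adjusted p = 0.0215), and RFC3, of the clamp loader, was lower (38.5 FPKM with shFAM83H-AS1_2 and 56.2 FPKM with shNC, -0.53, limma adjusted p = 0.0208). MCL1, which protects from apoptosis, was lower with pairs (65.5 ± 7.01 FPKM with shFAM83H-AS1_2 and 88.4 ± 0.402 FPKM with shNC, SD, n = 3 each; -0.43, limma adjusted p = 0.0439), and so was the death receptor TNFRSF10A (3.65 FPKM with shFAM83H-AS1_2 and 5.21 FPKM with shNC, -0.42). With trends with GC removed RFC3, MCL1 and TNFRSF10A missed the threshold with pairs (limma adjusted p = 0.0589, 0.0777 and 0.0701), and MCL1 missed it in each paired fit with a pair left out. TNFSF10, the ligand TRAIL, had 1.67, 1.09 and 2.41 FPKM with shFAM83H-AS1_2, against 0.830, 0.704 and 0.534 FPKM with shNC and did not pass (limma adjusted p = 0.0726 with pairs).

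The remaining genes that fell were ZMYND11, MRAS, KLF11 and MRPS35. ZMYND11, a reader of methylated histone H3.3, had 8.11, 6.31 and 6.94 FPKM with shFAM83H-AS1_2 and 16.7, 15.9 and 18.3 FPKM with shNC (-1.15, SE 0.117, limma adjusted p = 0.00797) and kept its call when any 1 library was left out. MRAS, a Ras-family GTPase, had 17.2 ± 2.74 FPKM with shFAM83H-AS1_2 and 31.8 ± 3.74 FPKM with shNC (SD, n = 3 each; -0.85, limma adjusted p = 0.0455). KLF11, a transcription factor induced by TGF-beta, had 5.35 ± 0.166 FPKM with shFAM83H-AS1_2 and 9.27 ± 0.975 FPKM with shNC (SD, n = 3 each; -0.69, limma adjusted p = 0.0454). The mitochondrial ribosomal protein gene MRPS35 had 24.7 ± 2.66 FPKM with shFAM83H-AS1_2 and 40.5 ± 0.975 FPKM with shNC (SD, n = 3 each; -0.69, limma adjusted p = 0.0423). With a library left out MRAS kept its call in 1 of 6 fits, and KLF11 and MRPS35 in 0.

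Among the genes that rose, RNF128, a ubiquitin ligase, had 5.28, 2.66 and 6.76 FPKM with shFAM83H-AS1_2 and 0.798, 0.747 and 0.992 FPKM with shNC (1.61, SE 0.241, limma adjusted p = 0.0355). Its knockdown libraries varied widely, yet each was above every control. EHD2, an ATPase at the neck of caveolae, had 4.60, 6.11 and 8.21 FPKM with shFAM83H-AS1_2, against 1.67, 2.73 and 1.91 FPKM with shNC (1.22, limma adjusted p = 0.0455). Aldo-keto reductase AKR1C1, which reduces progesterone, had 13.8, 11.8 and 16.3 FPKM with shFAM83H-AS1_2, against 5.94, 6.35 and 7.84 FPKM with shNC (0.95, limma adjusted p = 0.0355). Its near-identical neighbour AKR1C2 had 11.2 ± 1.71 FPKM with shFAM83H-AS1_2 and 5.89 ± 0.843 FPKM with shNC (SD, n = 3 each) and passed with pairs (0.83, limma adjusted p = 0.0123). How reads were split between them is uncertain. ROR2, a receptor for WNT5A, rose (2.60 ± 0.173 FPKM with shFAM83H-AS1_2 and 0.959 ± 0.0792 FPKM with shNC, SD, n = 3 each; 0.88, limma adjusted p = 0.0262). ZNF703, a corepressor known from luminal breast cancer, also rose (17.5 ± 0.950 FPKM with shFAM83H-AS1_2 and 8.60 ± 1.04 FPKM with shNC, SD, n = 3 each; 0.95, limma adjusted p = 0.0137). Of 6 fits with a library left out, RNF128 kept its call in 2, ZNF703 in 3, and EHD2, AKR1C1 and ROR2 in 1 each.

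The complement inhibitor gene SERPING1, S1PR5, a receptor for sphingosine 1-phosphate, the phospholipase gene PLAAT3, ISLR and IFI27L2 rose by 0.91 to 1.05 on the log2 scale, with limma adjusted p of 0.0137 to 0.0448. In these 5 genes the groups did not overlap. Of 6 fits with a library left out, ISLR and IFI27L2 kept their calls in 4, SERPING1 in 2, and PLAAT3 and S1PR5 in 1. The other 8 genes that rose fall outside the rule for named genes. They were 5 protein-coding genes with log2 changes of 0.70 to 0.87 and 3 noncoding RNA genes. A Y RNA gene rested on 11 reads with shFAM83H-AS1_2 and 0 with shNC, and a microRNA gene on 6 with shFAM83H-AS1_2 and 0 with shNC. Both entered the test through their shFAM83H-AS1_2 libraries alone, so they had to differ, and their calls carry no weight.

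Whether the hairpins against FAM83H-AS1 differ was tested directly in a model of the 9 libraries, in which both share the shNC libraries. The target had 8.56, 7.92 and 7.46 FPKM with shFAM83H-AS1_2 and 7.37, 5.54 and 4.93 FPKM with shFAM83H-AS1_1, a log2 difference of 0.38 that did not pass (limma adjusted p = 0.593). Of 11875 genes 11 differed (0.0926%), 10 of them higher with shFAM83H-AS1_2. With single libraries left out, the number was 4, 6 and 3 without replicates 1, 2 and 3 of shFAM83H-AS1_2, 6, 10 and 17 without those of shFAM83H-AS1_1, and 5, 7 and 7 without those of shNC. MAGEB2 had 12.3, 10.4 and 13.1 FPKM with shFAM83H-AS1_2, 2.07, 2.06 and 1.75 FPKM with shFAM83H-AS1_1 and 1.42, 2.16 and 1.22 FPKM with shNC. The levels with shFAM83H-AS1_1 lay within the control range. The hairpins differed by 2.12 (SE 0.162, limma adjusted p = 0.00149), and the call held whichever of the 9 libraries was left out.

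AKR1C1 and AKR1C2 also differed between the hairpins. AKR1C1 had 11.8 to 16.3 FPKM with shFAM83H-AS1_2, 5.17 to 5.37 FPKM with shFAM83H-AS1_1 and 5.94 to 7.84 FPKM with shNC (difference 1.25, limma adjusted p = 0.0145). AKR1C2 averaged 11.2 FPKM with shFAM83H-AS1_2, 3.47 FPKM with shFAM83H-AS1_1 and 5.89 FPKM with shNC (1.45, limma adjusted p = 0.00679). With a library left out the calls held in 6 of 9 fits for AKR1C1 and in 7 of 9 for AKR1C2 (limma adjusted p up to 0.120 and 0.0707 over the alternatives). CXCL1 averaged 8.53 FPKM with shFAM83H-AS1_2, 1.30 FPKM with shFAM83H-AS1_1 and 17.8 FPKM with shNC, and ICAM1 and UTP18 were ordered the same way. These 3 were higher with shFAM83H-AS1_2 than with shFAM83H-AS1_1 by 2.15, 0.95 and 0.97 on the log2 scale (limma adjusted p = 0.0258, 0.0355 and 0.0347). The calls held in 2, 1 and 1 of the 9 fits with a library left out. The other 5 of the 11 fall outside the rule for named genes. For all other tested genes the difference between hairpins did not pass, and a missed threshold does not show that the hairpins act alike.

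**Figure D5:**
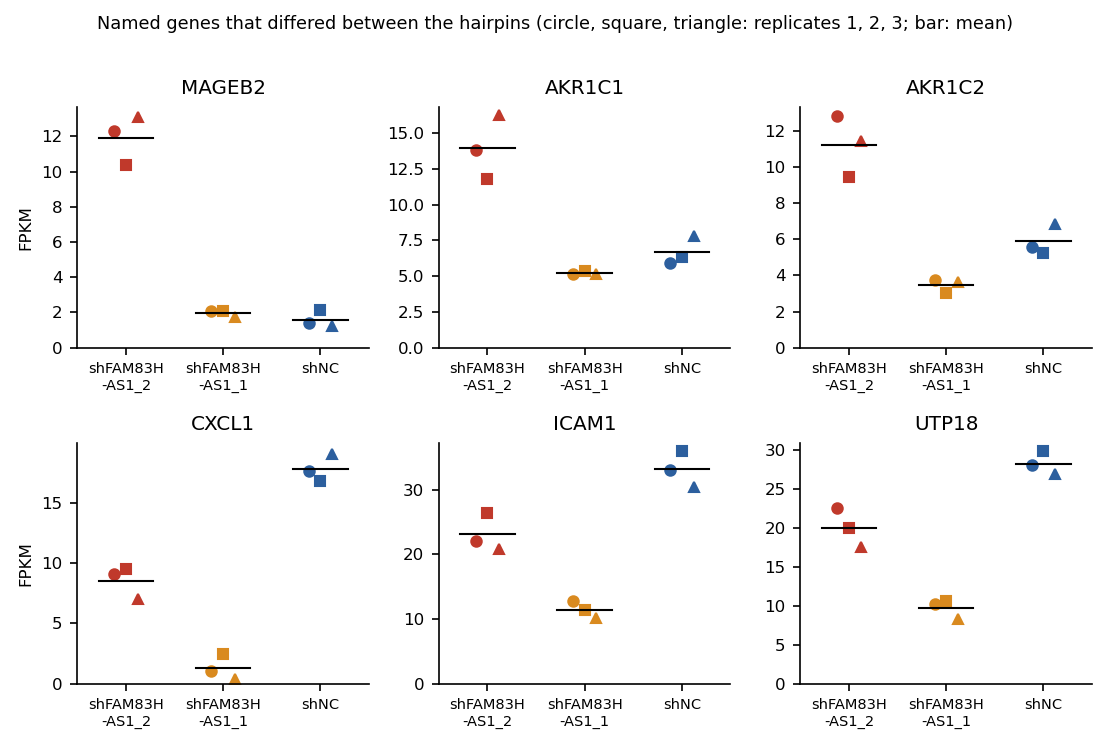
FPKM in the 9 libraries of 6 named genes that differed between the hairpins, with shFAM83H-AS1_2 on the left, shFAM83H-AS1_1 in the middle and shNC on the right. Circles, squares and triangles are replicates 1, 2 and 3, and bars are means. MAGEB2, AKR1C1 and AKR1C2 are high with shFAM83H-AS1_2 alone, while CXCL1, ICAM1 and UTP18 lie between shFAM83H-AS1_1 and shNC.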

How the data were processed

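RNA-seq libraries of MDA-MB-468 cells, grouped by sample titles, were 3 with shFAM83H-AS1_2 and 3 with shNC. The deposited values are FPKM per gene, which the authors scaled by gene length and library depth. The submitters' processing notes name hg38 and, without roles, the tools HTSeq 0.6.0, HISAT2 2.1.0 and Bowtie2 2.2.3. The annotation release is not given in the sources used here. Coordinates are those of the table. Whole reads, recovered from the FPKM steps for every gene within 1e-05 reads, gave depth, read numbers and 1 alternative. Of 31005 lines 1 named no gene and was left out. Symbols came from a gene name table (23852 genes) or GENCODE release 29 (6251), and 901 had none.

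Differences were tested in limma 3.58.1 (R 4.3.3) on log2(FPKM + 1), which understates changes of low genes. The fit held the 6 libraries and group means, with moderated variances that follow the level. Tests were two-sided, with Benjamini-Hochberg adjustment over 11875 genes and a threshold of 0.05. Whether replicate numbers pair the libraries was checked on the deviations from group means: each same-numbered pair correlated above 0.1, and so paired values stand beside results they change. The labels name no shared batch. The hairpins were compared in a fit of the 9 libraries. The fits were tested on simulated data. Figures used matplotlib 3.10.9 and pandas 2.3.3 in Python 3.11.15 (numpy 2.4.6).

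The named genes are the target and its 8q24.3 neighbours, on each side up to 15 genes with the largest change among those called with groups apart and a mean of 1 FPKM or more, filled up to 10 from the paired fit, and up to 4 members of each list with the smallest p. Some genes that met it are not reported here. CXCL10, CCL20, CX3CL1, CXCL16, CA9, EGR1, S100A8, S100A9, BNIP3, ENO2, PGK1, PFKP, IDI1, RELA, NFKB1, MYC, MAGEB4, MAGEB1, MAGEA3, MAGEA6 and MIR4664 were named outside it, after their values were seen. The comparison, the lists and the rule were chosen with earlier results of these data known. The alternatives were another pseudocount, no or a stricter filter, other scalings, pairs, removal of trends with GC content, all 9 libraries, all libraries except shFAM83H-AS1_1 replicate 3, a robust variance model, voom on reads, and leaving out each library.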

Additional observations from a re-analysis of the deposited data

Results flagged for a closer look

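The effect against shNC differed between shFAM83H-AS1_2 and shFAM83H-AS1_1 in 6 named genes, by the limma contrast of the hairpins in 1 fit of 9 libraries. The difference of the log2 changes, shFAM83H-AS1_2 minus shFAM83H-AS1_1, was 2.12 for MAGEB2, 1.45 for AKR1C2 and 1.25 for AKR1C1. It was 2.15 for CXCL1, 0.95 for ICAM1 and 0.97 for UTP18. Without shFAM83H-AS1_1 replicate 3 the 6 differences were 2.07, 1.47, 1.25, 1.82, 0.87 and 0.87 in that order, and each passed (limma adjusted p of 0.0022 to 0.0414). Of the 9 fits with a library left out, MAGEB2 kept its call in 9, AKR1C2 in 7, AKR1C1 in 6 and CXCL1 in 2. ICAM1 and UTP18 kept theirs in 1, which was the fit without shFAM83H-AS1_1 replicate 3. For CXCL1, ICAM1 and UTP18 the limma adjusted p reached 0.203 over the alternatives. The cause of these differences was not tested.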

How the results depend on the processing

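Between shFAM83H-AS1_2 and shNC, the 33 calls became 0 with no filter (2664 genes at an unadjusted p under 0.05), 85 with a filter of 5 FPKM, 68 with GC trends removed, 83 with voom on reads and 3 with all 9 libraries. A fit of all libraries except shFAM83H-AS1_1 replicate 3, added after the values were seen, gave 42 calls, 30 of the 33 among them. With the replicate block, that is, same-numbered libraries as pairs, there were 617 calls, and 220 with GC trends removed as well. Blocks combined after seeing the data with voom, median ratio scaling, quantile normalization and a pseudocount of 0.1 gave 1604, 474 (287 higher, 187 lower), 514 and 583 calls. Leaving out 1 replicate gave 4 to 48 calls without the block and 104, 746 and 0 without replicate 1, 2 or 3 with it (at 0, limma left 2198 genes with an unadjusted p under 0.05). The target kept its direction throughout. Its log2 change of -0.96 missed the threshold with no filter (adjusted p = 0.118) and with all 9 libraries (0.142), was -1.02 with the block without replicate 3 (0.0543), and ran from -1.06 to -0.91 when a replicate was left out (adjusted p up to 0.0891). Between the hairpins, 11 calls became 7 with a pseudocount of 0.1, 4 with the replicate block, 2 with the 6 libraries of the hairpins alone, and 3 to 17 when a replicate was left out.

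Of 3398 values of single genes under alternatives, 9 changed sign, none of a called gene. The log2 change of FAM83H was -0.071 with GC trends removed, without and with the block, and -0.052 to 0.176 when a replicate was left out. EGFR had -0.066 with the block without replicate 3 and -0.061 to 0.294 when a replicate was left out. CXCL16 had -0.038 to 0.291 when a replicate was left out. MAGEB4 had -0.047 with the block without replicate 1 and -0.0049 to 0.142 when a replicate was left out. The causes were not tested. With 3 libraries a group, small changes could be missed. Genes of few reads carry large counting error, and the spread between replicates exceeded counting error.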
